A study of Mus musculus with 26 samples.

Results

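The genes of MHC class II antigen presentation were examined across all libraries of a mouse study on METTL3 and m6A in myogenesis. The 7 genes, chosen by symbol, were H2-Aa, H2-Ab1, H2-Eb1, H2-DMa, H2-DMb1, Cd74 and Ciita. All 7 were found in both deposited expression tables, among 53465 genes in the regeneration table and 55487 in the C2C12 table. In the regeneration experiment, the tibialis anterior (TA) muscle of C57BL/6J mice, which the methods give as male and 6 weeks old, was injured with cardiotoxin (CTX), a toxin from cobra venom that kills myofibers. RNA was sequenced on days 0, 1, 3, 5 and 10, from 2 libraries a day and 10 in total. The methods name saline as the control, and whether day 0 muscle was untouched or saline-injected is not settled. In the cell experiment, C2C12 cells, a mouse myoblast line, carried a control construct (CTRL) or the Cas9M3 construct. By the methods, Cas9M3 is a catalytically inactive Cas9 fused to the KRAB repressor and guided to the Mettl3 promoter, delivered by lentivirus and kept as puromycin-selected stable cells. The series' own design text calls these cells knockouts. Both kinds of C2C12 cells were sequenced in growth medium (day 0) and after 3 days of differentiation (day 3), giving 4 groups of 2 libraries. The 8 samples of the Mettl3 overexpression experiment were not analysed here.

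MHC class II molecules are pairs of an alpha and a beta chain that show peptides from engulfed material to CD4 T cells. In the mouse they come as I-A, made by H2-Aa and H2-Ab1, and I-E, whose beta chain is H2-Eb1. Cd74, the invariant chain, holds new pairs together and blocks their groove until proteases remove it in the endosome, and H2-DM, made by H2-DMa and H2-DMb1, then exchanges the remaining fragment for a peptide. Ciita is the transactivator that switches these genes on. It binds no DNA itself but docks on RFX, CREB and NF-Y proteins that sit on the X and Y boxes of class II promoters. In muscle, professional antigen-presenting cells such as macrophages, dendritic cells and B cells are the main carriers of class II. C57BL/6 mice carry a deletion at the start of the I-E alpha gene, listed as H2-Ea-ps, and show no I-E on their cells although H2-Eb1 is transcribed.

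On the GRCm38 build with GENCODE M21, 5 of the 7 genes lay in the class II region of chromosome 17. H2-DMa spanned 17:34119541-34139101 and H2-DMb1 17:34153072-34160230, both on the plus strand. H2-Ab1 lay at 17:34257689-34269419 on the plus strand, H2-Aa at 17:34282744-34287823 on the minus strand and H2-Eb1 at 17:34305867-34316674 on the plus strand. Ciita lay at 16:10480059-10528418 on the plus strand. The exons of H2-DMa shared 360 bp, 10.4% of their length, with exons of Brd2 on the other strand, and those of Ciita shared 329 bp with Dexi. Whether reads were counted by strand is not stated, so reads on these stretches cannot be told apart. H2-DMb1 and H2-DMb2 are close copies, and how reads were split between them is uncertain.

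RefSeq promoter windows (GRCm38.p6, 250 bases before to 50 after the start) were available for 4 of the 7 genes. The stretch around the Y box, where NF-Y is known to bind, is shown for H2-Eb1 and H2-DMb1, which hold both boxes, and for H2-Aa, whose time course leads the results. Capitals mark the Y box ATTGG and, where present, the X box core AACNNATG, each 5′ to 3′ on the strand of the gene.
H2-Eb1, chr17:34305768-34305817, plus strand: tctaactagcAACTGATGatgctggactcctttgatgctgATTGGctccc
H2-DMb1, chr17:34153090-34153139, plus strand: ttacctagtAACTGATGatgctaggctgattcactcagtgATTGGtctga
H2-Aa, chr17:34287862-34287911, minus strand: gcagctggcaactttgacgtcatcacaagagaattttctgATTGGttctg
In H2-Eb1 the Y box began 30 bases after the X core, and in H2-DMb1 31 bases after it. Both strands of 32851 windows were searched for an X core followed 15 to 40 bases later by a Y box, and 63 windows (0.192%) held the pair. An X core, with or without the other box, was in 8.86% of the windows and a Y box in 37.4%. Neither of the 2 windows of H2-DMa held the pair, and H2-Aa held the Y box without these X core letters. Of the class II relatives, H2-DMb2, H2-Ob and H2-Eb2 held the pair and H2-Oa did not. These matches describe letters in a window and are not binding data.

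The implied depth was 14174079 to 18823229 reads on genes per regeneration library and 14226526 to 29558784 per C2C12 library. The values are FPKM, read counts scaled by the length of all exons of the gene and by 1 factor for each library. Levels of different genes within a table can be compared only with this length in mind. The library factor did not follow depth alone. On 1 kb of exons, 1 read stood for 0.0803 FPKM in day 0 replicate 1 (16776205 reads) and 0.0494 FPKM in day 3 replicate 2 (14289663 reads). Muscle markers were present in every regeneration library, where Acta1, Ckm, Tnnt3, Myh4 and Mb summed to between 10832 FPKM (day 3) and 52030 FPKM (day 10). Although the methods name male mice, Xist, the RNA of the inactive X chromosome in females, was at 5.77 FPKM or more on day 0, on day 10 and in day 3 replicate 2. It was at 0.152 FPKM or less in the other 5 libraries, so that between day 0 and day 5 Xist and day cannot be told apart without the day 3 libraries. Replicate 2 stood above replicate 1 for all 7 genes on day 0 (1.33-fold for Ciita to 2.26-fold for H2-DMa) and on day 10, for 5 of the 7 on days 1 and 3, and for none on day 5. Changes in the 7 genes are therefore also given with an Xist term or without single libraries where these move them. Only the 2 libraries of day 3 differed in Xist within a day, so they alone set the Xist term. It is thus a weak adjustment. The 2 libraries of a day are not stated to come from separate animals, so p-values measure the spread between libraries. On day 3 Xist was at 0.0198 FPKM in replicate 1 and 10.0 in replicate 2, so these are not copies of 1 RNA sample. On the other days the spread may be technical.

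The 7 genes followed one time course in injured muscle: low on days 0 and 1, highest on day 3, lower on day 5, and on day 10 low in replicate 1 and higher in replicate 2. H2-Aa, the I-A alpha chain, was at 12.2 and 19.9 FPKM on day 0 and 14.4 and 17.8 FPKM on day 1. It reached 138 and 136 FPKM on day 3, then 113 and 81.7 on day 5, and ended at 17.0 and 46.6. The day 3 and day 5 libraries lay above all others, and of the day 10 libraries one lay between the day 0 values and one above them. H2-Ab1, its beta chain partner, gave 11.1 and 20.6 FPKM on day 0, 13.9 and 17.2 on day 1, 123 and 127 on day 3, 84.1 and 70.4 on day 5, then 16.0 and 33.8 on day 10. H2-Eb1, the I-E beta chain, ran beside them, with 14.7 and 20.9 FPKM on day 0, 15.9 and 19.4 on day 1, 137 and 137 on day 3, 117 and 89.7 on day 5, then 17.5 and 50.5 on day 10. The I-E alpha gene H2-Ea-ps was listed at 0 in 9 of the 10 libraries and at 0.102 FPKM in day 1 replicate 1.

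Cd74, on chromosome 18 at 60803848-60812652, was the most abundant of the 7 genes by FPKM in all 10 libraries. In implied reads over all regeneration libraries H2-Aa stood above it (40292.5 against 33480), with exons of 3798 bp against 1679 bp. Its levels were 21.1 and 35.2 FPKM on day 0, 23.3 and 38.8 on day 1, 257 and 298 on day 3, 175 and 159 on day 5, then 26.2 and 72.8 on day 10. The peptide editor stood far lower. H2-DMa went from 0.929 and 2.10 FPKM on day 0 and 2.98 and 2.74 on day 1 to 19.2 and 19.8 on day 3, then 7.55 and 6.89 on day 5, then 1.54 and 3.22 on day 10. H2-DMb1 was at 1.24 and 2.22 FPKM on day 0, 3.10 and 2.26 on day 1, 20.5 and 18.7 on day 3, 8.80 and 7.89 on day 5, then 1.48 and 4.21 on day 10. For H2-DMa and H2-DMb1 the day 1 libraries already lay above both day 0 libraries, which was not so for the I-A and I-E chains. Brd2, which shares exon bases with H2-DMa, stayed between 11.9 and 16.4 FPKM over the 10 libraries.

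Ciita, the transactivator, was the least abundant by FPKM in all 10 libraries. It was at 0.397 and 0.527 FPKM on day 0, 0.319 and 0.464 on day 1, 3.55 and 4.01 on day 3, 1.62 and 1.16 on day 5, then 0.342 and 0.660 on day 10. The order Cd74, then H2-Aa, H2-Ab1 and H2-Eb1, then H2-DMa and H2-DMb1, then Ciita held in each library. H2-Eb1 stood above H2-Ab1 in all 10. H2-Aa stood between them except in day 0 replicate 2, where it was below H2-Ab1, and day 3 replicate 1, where it was above H2-Eb1. H2-DMa and H2-DMb1 changed places between libraries. Whether the levels of these neighbours differ was not tested.

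**Figure D1:**
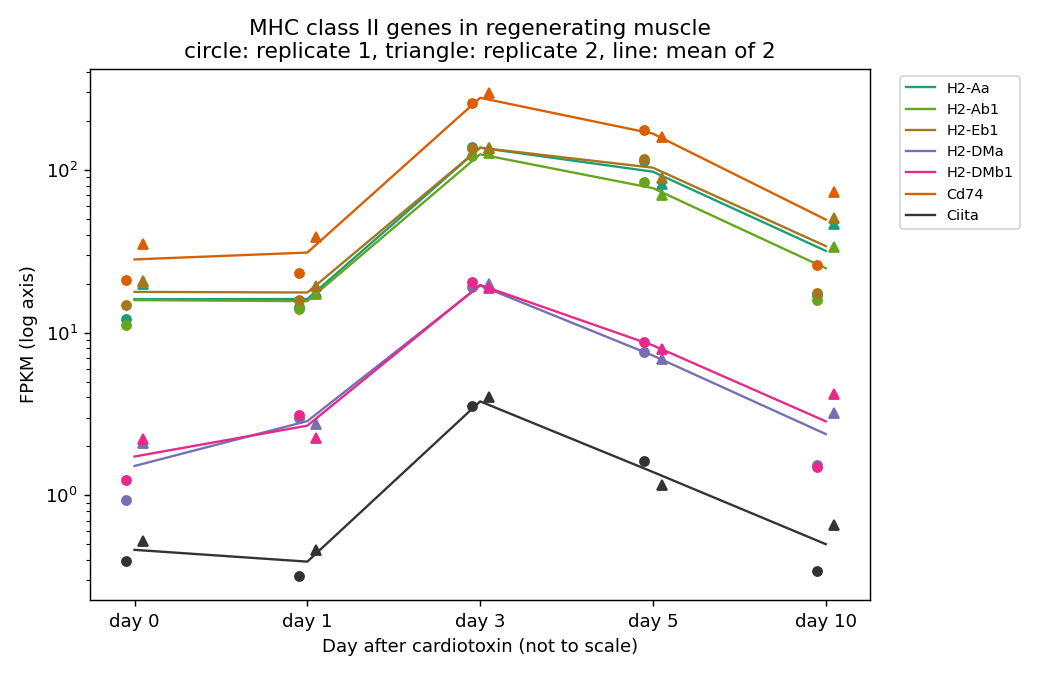
Level of each of the 7 genes in FPKM (log axis) by day after cardiotoxin, with circles for replicate 1, triangles for replicate 2 and lines for the mean of both. All genes peak on day 3, where H2-Aa is at 138 and 136 FPKM, and replicate 2 stands above replicate 1 for every gene on day 10.

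From day 0 to day 3, all 7 genes rose (limma on log2 of FPKM + 0.1 over 16753 genes, Benjamini-Hochberg adjusted p of at most 0.05), where 24.5% of all genes tested were called higher. The largest log2 fold change was that of H2-DMa, 3.70 (SE 0.40, adjusted p = 0.000491), and the smallest that of Ciita, 2.79 (SE 0.33, adjusted p = 0.000621). In ratios of mean FPKM these were 12.9-fold for H2-DMa and 8.17-fold for Ciita, beside 11.3-fold for H2-DMb1, 9.84-fold for Cd74, 8.54-fold for H2-Aa, 7.88-fold for H2-Ab1 and 7.69-fold for H2-Eb1. In these ratios, which add no 0.1 FPKM, Ciita stood above H2-Ab1 and H2-Eb1. The fold of H2-DMa rested on day 0 libraries that differed 2.26-fold, and its log2 fold change was 3.15 without day 0 replicate 1 and 4.25 without replicate 2. The median log2 fold change of the 7 genes was 3.13, against 0.01 for all genes. With a term for Xist-expressing libraries the 7 changes were 2.88 to 3.72, with adjusted p of 0.00512 to 0.0124. The Xist-expressing and the Xist-low library of day 3 gave near-equal values, such as 136 and 138 FPKM for H2-Aa.

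Between day 0 and day 1, no gene of the 7 passed the limma test, and 1 had an unadjusted p under 0.05. Among all genes, 3.53% were called higher and 2.47% lower. The log2 difference was 0.04 for H2-Ab1 (95% interval -0.86 to 0.93), 0.14 for Cd74 (-0.97 to 1.25) and -0.20 for Ciita (-0.96 to 0.56). H2-DMa had the largest difference, 0.97 (0.04 to 1.91, adjusted p = 0.170). With the Xist term the 7 differences were -0.03 to 1.02, with adjusted p of 0.671 or more. From day 1 to day 3 all 7 rose, by 2.73 (H2-DMa) to 3.20 (Cd74) on the log2 scale, where 14.5% of all genes were called higher, and by 2.71 to 3.10 with the Xist term (adjusted p 0.0301 to 0.0427).

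On day 5 all 7 genes were above day 0, with 12.9% of all genes called higher and 12.5% lower. The log2 fold changes were 2.62 for H2-Aa (SE 0.45), 2.54 for H2-Eb1 (SE 0.44), 2.61 for Cd74 (SE 0.48), 2.34 for H2-Ab1 (SE 0.38), 2.28 for H2-DMa (SE 0.40) and 2.26 for H2-DMb1 (SE 0.45). Ciita had the smallest, 1.40 (SE 0.33, adjusted p = 0.0232). No gene of the 7 kept an adjusted p of at most 0.05 without day 0 replicate 1 (0.0816 to 0.138), without day 5 replicate 1 (0.0524 to 0.112) or without day 5 replicate 2 (0.0855 to 0.102), although the fold changes stayed between 1.17 and 2.85. With the Xist term the changes were 1.57 to 2.82 and the adjusted p 0.192 to 0.252.

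**Figure D2:**
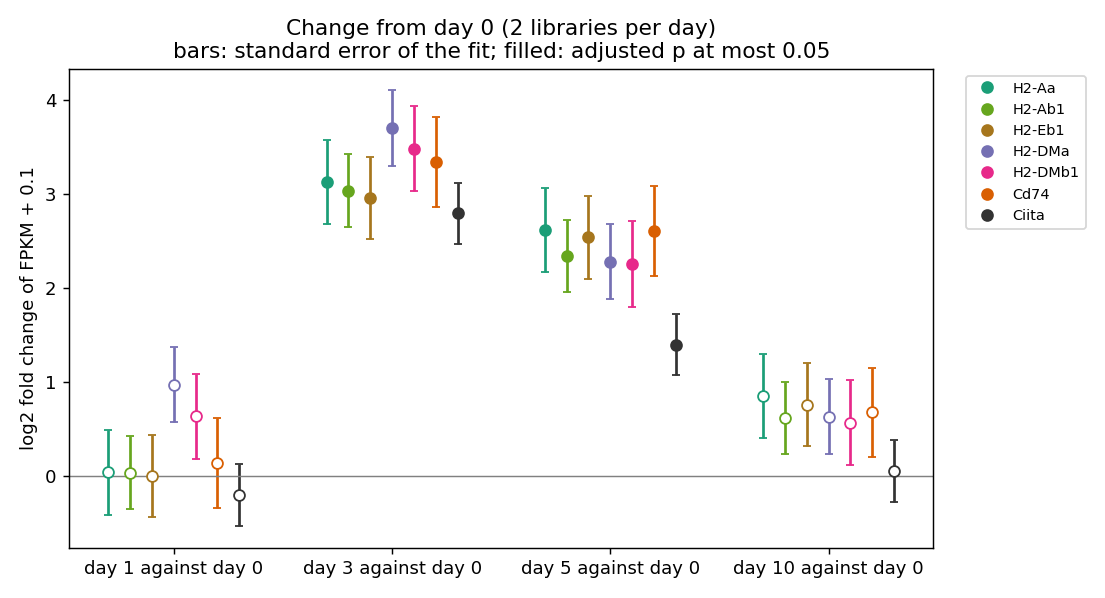
Log2 fold change of FPKM + 0.1 against day 0 for the 7 genes on days 1, 3, 5 and 10, with bars for the standard error and filled symbols for an adjusted p of at most 0.05. All 7 are filled on days 3 and 5 and none on days 1 and 10, and Ciita is the lowest point on each day. This scale understates changes of low genes such as Ciita. In ratios of mean FPKM on day 3, Ciita (8.17-fold) stood above H2-Ab1 (7.88-fold) and H2-Eb1 (7.69-fold).

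From day 3 to day 5 only Ciita passed the test, and it fell by 1.39 on the log2 scale (SE 0.33, adjusted p = 0.0338), where 5.46% of all genes were called lower and 7.23% higher. H2-DMa was at -1.42 (SE 0.40, adjusted p = 0.0573) and H2-DMb1 at -1.22 (SE 0.45, adjusted p = 0.120). The chains were at -0.51 for H2-Aa (95% interval -1.55 to 0.53), -0.70 for H2-Ab1 (-1.59 to 0.20) and -0.42 for H2-Eb1 (-1.44 to 0.60), and Cd74 at -0.73 (-1.84 to 0.38). In mean FPKM, 71.2% of the day 3 level of H2-Aa, 75.4% of H2-Eb1, 61.9% of H2-Ab1 and 60.2% of Cd74 were left on day 5. For H2-DMb1, H2-DMa and Ciita 42.5%, 37.1% and 36.8% were left. The count of 1 rested on the setting, and went from 0 without either library of day 3 or of day 5 to 5 when only these days were fitted.

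By day 10 all 7 genes had fallen from day 3, by 2.20 (H2-Eb1) to 3.07 (H2-DMa) on the log2 scale, where 18.8% of all genes were called lower. The size rested on the day 10 libraries, with changes of -2.56 to -1.44 without day 10 replicate 1 (adjusted p 0.00690 to 0.0222) and -3.64 to -2.96 without replicate 2 (adjusted p 0.00140 to 0.00215). With the Xist term they were -3.09 to -2.20 (adjusted p 0.00881 to 0.0411). Against day 0, none passed the limma test, none had an unadjusted p under 0.05, and 0.00597% of all genes were called higher and 0% lower. The differences from day 0 were 0.05 (Ciita) to 0.85 (H2-Aa), with an interval of -0.19 to 1.89 for H2-Aa. Day 10 replicate 2 was 2.75-fold above replicate 1 for H2-Aa, 2.88-fold for H2-Eb1 and 1.93-fold for Ciita. Without it, the differences from day 0 lay between -0.34 and 0.13, and without replicate 1 between 0.44 and 1.58. Over the 5 days together, all 7 genes changed by the moderated F test of limma (adjusted p 0.00238 for Ciita to 0.00437 for H2-DMb1), as did 43.0% of all genes tested. The comparisons with day 0 share its 2 libraries, and those with day 3 share that day's.

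The ratio of 2 genes within a library is free of the library's scaling. The 0.1 FPKM added for the test breaks this for low genes such as Ciita, and the ratios printed are without it. For a difference between days, 6 pairs were tested (exact permutation test of the F statistic of log2 ratios with 0.1 FPKM added to each gene, over 945 placements and without a direction, adjusted over the 6 pairs). No difference between days was called for 4 of the pairs, and H2-DMa over H2-Aa also missed the threshold. In the exact permutation test H2-Aa over H2-Ab1 ran from 0.967 to 1.38 (adjusted p = 0.506), H2-Eb1 over H2-Ab1, the beta chains of I-E and I-A, from 1.01 to 1.50 (adjusted p = 0.562), and H2-DMa over H2-DMb1 from 0.748 to 1.21 (adjusted p = 0.562). Cd74 over H2-Aa ran from 1.54 to 2.19 (exact permutation test, adjusted p = 0.562). These p-values do not show that the ratios were equal on all days.

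The ratio of Ciita to H2-Aa was called different between days only with the pseudocount of 0.1 FPKM. With nothing added, this ratio was 0.0327 and 0.0265 on day 0, 0.0222 and 0.0261 on day 1, then 0.0258 and 0.0294 on day 3, against 0.0143 and 0.0142 on day 5, then 0.0202 and 0.0142 on day 10. The days 5 and 10 libraries lay below all others. With 0.1 FPKM added, the exact permutation p was 0.00423 and the adjusted p 0.0254. The adjusted p of the exact permutation test rose to 0.0635 with a pseudocount of 1, to 0.0730 with one of 0.01, and to between 0.0508 and 0.346 with 1 library left out. H2-DMa over H2-Aa was 0.0764 and 0.105 on day 0, 0.207 and 0.154 on day 1, 0.139 and 0.145 on day 3, 0.0668 and 0.0843 on day 5, then 0.0910 and 0.0690 on day 10. The libraries of days 1 and 3 lay above all others, with an exact permutation p of 0.0201 and an adjusted p of 0.0603.

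**Figure D3:**
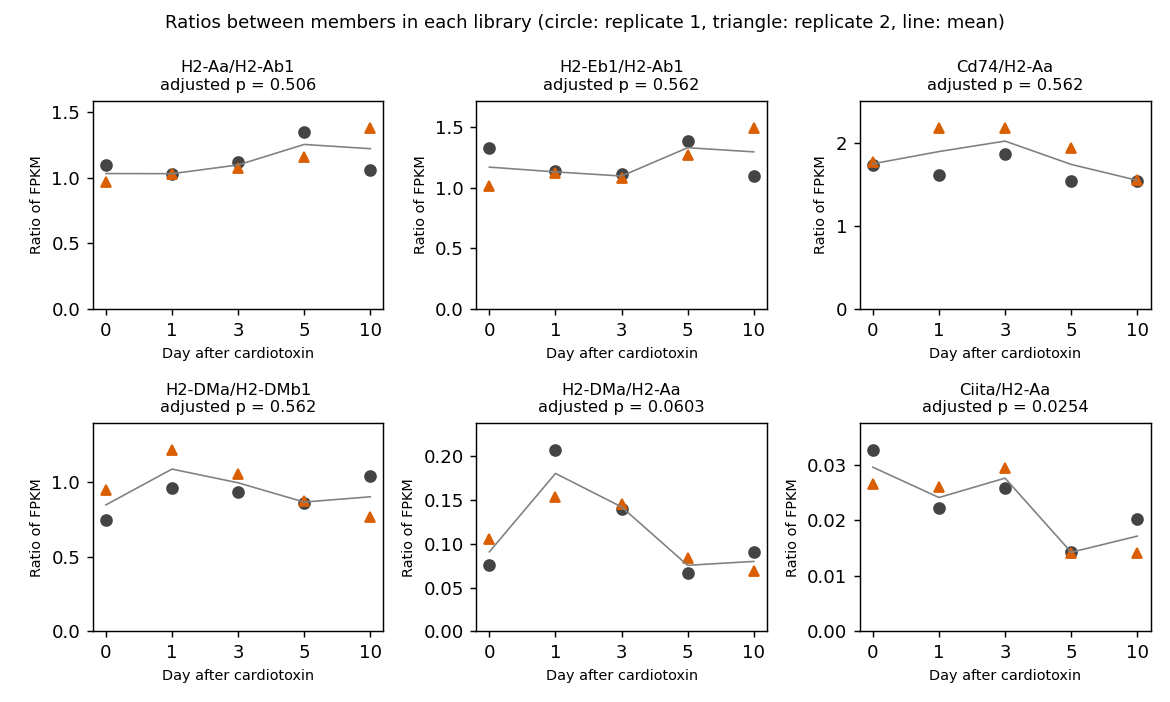
Ratio of FPKM of 6 pairs of genes in each regeneration library by day after cardiotoxin, with circles for replicate 1, triangles for replicate 2 and lines for the mean. The ratios are drawn without the 0.1 FPKM added for the test. Ciita over H2-Aa is at 0.0143 and 0.0142 on day 5 and above 0.022 in every library of days 0, 1 and 3.

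Of 31 other genes of the class II pathway, 28 were tested in muscle, and on day 3 against day 0, 18 rose, 5 fell and 5 did not pass. Among all genes tested, 24.5% were called higher and 24.3% lower. Of the other class II chains, H2-Oa and H2-Ob, which form the inhibitor of H2-DM, rose from 0.0611 and 0.114 FPKM to 1.12 and 1.05, and from 0.153 and 0.190 to 0.578 and 0.768. H2-DMb2 did not pass (log2 difference 1.05, SE 0.40). The antigen-processing enzymes rose in 6 of 7 cases. Ctss, the protease that trims Cd74, went from 4.79 and 11.9 FPKM to 346 and 360. Lgmn, an endosomal protease, went from 14.2 and 24.9 to 134 and 127, and Ifi30, which reduces disulphide bonds of antigens, from 6.22 and 6.11 to 55.9 and 62.0. Sppl2a, which clears the last Cd74 fragment, fell from 8.39 and 7.76 FPKM to 5.65 and 5.63.

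The proteins that seat Ciita on promoters moved in both directions. Of 7, Nfya rose from 1.55 and 1.22 FPKM to 2.75 and 2.82, while Nfyb, Nfyc and Rfxap fell. Rfxap, a subunit of RFX, went from 9.09 and 7.05 FPKM to 4.38 and 4.03. Rfx5, Rfxank and Creb1 did not pass. All 4 costimulators rose (Cd80, Cd86, Cd40 and Icosl), with Cd86 at 0.132 and 0.307 FPKM on day 0 and 1.76 and 1.77 on day 3. March1, a ligase that marks class II for removal, went from 0.0225 and 0.0943 FPKM to 1.38 and 1.42, and Cd83, which opposes it, from 0.499 and 0.495 to 5.38 and 4.71. Ifng, the cytokine best known to induce Ciita, stayed below the test's filter, with at most 0.117 FPKM in any library. Irf1, a transcription factor that it induces, rose by 1.26 on the log2 scale.

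On day 1, when none of the 7 genes passed, 3 pathway genes had risen, namely Ctsb, Lgmn and Ifi30, where 3.53% of all genes were called higher. Lgmn was then at 82.5 and 62.9 FPKM. Ctss did not pass, although it was at 45.3 and 68.6 FPKM on day 1 against 4.79 and 11.9 on day 0. From day 3 to day 5, Ctsb, Ctsd, Ctsl, Lgmn, Ifi30 and March1 fell, where 5.46% of all genes were called lower. The other 22 tested did not pass. Among those 22 was Ctss, at 346 and 360 FPKM on day 3 and 72.8 and 84.9 on day 5. By day 10, 17 had fallen from day 3, 3 had risen and 8 did not pass, where 18.8% of all genes were called lower and 19.1% higher. Whether these counts differ from those of the 7 genes was not tested.

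The marker sums of macrophages and dendritic cells were highest on day 3, as the class II genes were. The macrophage and monocyte sums were already higher on day 1 than on day 0. The 10 macrophage markers, none at 0 in any library, summed to 23.9 and 44.4 FPKM on day 0, 123 and 138 on day 1, 669 and 637 on day 3, 225 and 290 on day 5, then 41.8 and 116 on day 10. On day 3, 9 of the 10 rose from day 0, where 24.5% of all genes were called higher and 24.3% lower. The 4 monocyte markers summed to 0.868 and 1.88 FPKM on day 0, 12.3 and 19.8 on day 1, then 17.0 and 25.4 on day 3, 5.33 and 7.95 on day 5 and at last 0.937 and 2.98 on day 10, and all 4 rose by day 3. The 9 dendritic cell markers summed to 2.73 and 4.22 FPKM on day 0, 5.03 and 4.85 on day 1, 17.0 and 24.3 on day 3, 10.1 and 10.4 on day 5, then 3.38 and 7.94 on day 10. Of these, 7 were tested and 5 rose by day 3. Zbtb46 stayed between 0.887 and 1.32 FPKM in all libraries, and Ccr7 was at 0 in 1 library. The 7 B cell markers summed to 0.476 and 0.907 FPKM on day 0 and 1.75 and 1.49 on day 3, and Cd79b, the 1 marker tested, rose by 1.38 on the log2 scale (adjusted p = 0.0436). The 6 T cell markers summed to 0.663 and 0.806 FPKM on day 0 and 4.58 and 4.23 on day 3, and all 3 tested rose. All 5 myofiber markers fell by day 3, from sums of 48012 and 45670 FPKM to 12680 and 10832.

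On day 1 against day 0, when none of the 7 genes passed, 2 of 10 macrophage markers (Cd68 and Fcgr1) and 3 of 4 monocyte markers (Ccr2, Ly6c2 and Chil3) rose, and the other 8 and 1 did not pass. The share of all genes called higher was 3.53%. The difference between these markers and the 7 genes was not tested. The level of H2-Aa divided by the macrophage marker sum was 0.510 and 0.449 on day 0, 0.117 and 0.129 on day 1, 0.205 and 0.214 on day 3, 0.502 and 0.282 on day 5, then 0.405 and 0.402 on day 10. It was lowest in the libraries of day 1, and the other days lay above both of them. Itgax, a marker of dendritic cells and some macrophages, was at 0.221 and 3.64 FPKM in the 2 libraries of day 10, in the same direction as the 7 genes. The part of these cell types in the result was not tested. In bulk muscle, fewer cells of a type and less RNA per cell cannot be told apart.

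**Figure D4:**
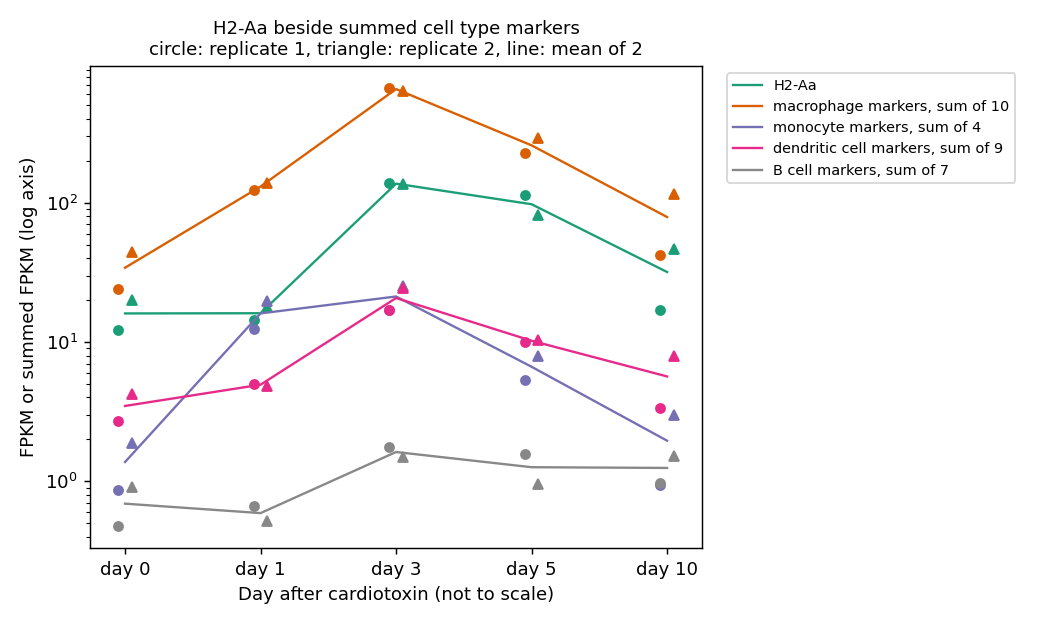
H2-Aa in FPKM and the summed FPKM of macrophage, monocyte, dendritic cell and B cell markers (log axis) by day after cardiotoxin, with circles for replicate 1, triangles for replicate 2 and lines for the mean. From day 0 to day 1 the monocyte sum goes from 0.868 and 1.88 to 12.3 and 19.8 FPKM while H2-Aa stays between 12.2 and 19.9 FPKM.

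The genes with the time course most like the mean of the 7, by Pearson r over the 10 libraries, were Cxcl16 (r = 0.995), P3h4, Zmynd15, Ccnd3, Rnf145, Sardh, Kctd12, Gria3, Ccdc8 and Capn6 (r = 0.988). The 7 genes themselves had r of 0.970 (H2-DMa) to 0.996 (H2-Ab1) with that mean. Cxcl16, a chemokine, was at 0.983 and 1.69 FPKM on day 0 and 18.1 and 15.5 on day 3. Capn6, a calpain-family gene, was at 0.391 and 0.865 FPKM on day 0 and 17.2 and 26.7 on day 3. These libraries share 5 days of injury, so the ranking is a description of likeness.

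In C2C12 cells, Mettl3, the targeted gene, was at 4.70 and 5.65 FPKM in CTRL and 0.331 and 0.118 in Cas9M3 on day 0, and at 4.68 and 5.15 in CTRL and 0.148 and 0.0805 in Cas9M3 on day 3. The log2 difference was -4.10 on day 0 (SE 0.40, adjusted p = 0.188) and -4.56 on day 3 (SE 0.40, adjusted p = 0.0187). Of the 10 macrophage markers, C1qa, C1qb, C1qc and Adgre1 were at 0 in all 8 libraries. Others were present, and the 10 summed to between 2.72 and 16.1 FPKM in a library. The 4 monocyte markers summed to between 1.49 and 18.3 FPKM.

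Most of the class II genes were at or near 0 in C2C12 cells. H2-Aa and H2-Ab1 had 0 reads in all 8 libraries, which allows up to 3 reads a library, or 0.0248 to 0.0818 FPKM for H2-Aa and 0.0367 to 0.121 FPKM for H2-Ab1, counting error only. H2-Eb1 was above 0 in 2 of the 8, with 1 read in Cas9M3 day 0 replicate 1 and 4 reads (0.0738 FPKM) in Cas9M3 day 3 replicate 1. Ciita had 2 reads (0.0066 FPKM) in CTRL day 0 replicate 1 and 0 in the other 7. H2-DMb1 was above 0 in 5 of the 8, with at most 6 reads (0.112 FPKM). None of these 5 genes passed the filter of 0.5 FPKM in 2 libraries, so no comparison of them was detectable at this depth.

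Only H2-DMa and Cd74 were tested in C2C12. H2-DMa was at 2.75 and 3.87 FPKM in CTRL and 3.86 and 4.31 in Cas9M3 on day 0, and at 2.01 and 1.78 in CTRL and 5.10 and 5.78 in Cas9M3 on day 3. On day 3 both Cas9M3 libraries lay above both CTRL libraries, and H2-DMa was higher by 1.47 on the log2 scale (SE 0.23, adjusted p = 0.0390), where 1.29% of all 13824 genes tested were called higher and 0.687% lower. The 2 groups also differed in muscle state on day 3. The 5 myofiber markers summed to 467 and 425 FPKM in CTRL and to 12.8 and 9.74 FPKM in Cas9M3. The part of muscle state in the level of H2-DMa was not tested. On day 0 the difference of H2-DMa was 0.31 (95% interval -0.25 to 0.87, adjusted p = 0.739), with 0% of all genes called higher or lower by limma. Neither H2-DMa nor Cd74 had an unadjusted p under 0.05. The fit had no replicate term, although same-numbered C2C12 libraries deviated together, so it may miss differences that pairing would show. The knockdown effect on day 3 minus that on day 0 was 1.16 for H2-DMa (SE 0.33, adjusted p = 0.398). The call on day 3 ended when any 1 library of CTRL day 3, Cas9M3 day 3 or Cas9M3 day 0 was left out (adjusted p 0.0581 to 0.409), with the difference between 1.39 and 1.56.

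Brd2, whose exons overlap H2-DMa, was far more abundant, at 37.3 and 33.7 FPKM in CTRL and 30.6 and 30.8 in Cas9M3 on day 3, and its difference was -0.21 (SE 0.17, adjusted p = 0.620). The part of Brd2 reads in the level of H2-DMa was not tested. H2-DMb1, the partner of H2-DMa, had 0 reads in both CTRL libraries of day 3 and 2 and 1 reads in Cas9M3.

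Cd74 was low and varied between libraries of one group. It was at 0.206 and 1.36 FPKM in CTRL and 0.132 and 2.01 in Cas9M3 on day 0, and at 0.195 and 0.215 in CTRL and 0.513 and 0.324 in Cas9M3 on day 3. Replicate 2 held most of the signal in both day 0 groups. The difference of Cas9M3 from CTRL was 0.74 on day 3 (95% interval -2.07 to 3.55, adjusted p = 0.836) and 0.07 on day 0 (-2.74 to 2.88, adjusted p = 0.994). This fit had no replicate term, so its intervals count as spread the replicate difference that both day 0 groups shared. Differentiation gave no call for either gene in limma. From day 0 to day 3, H2-DMa was at -0.76 in CTRL (SE 0.23, adjusted p = 0.185), the 1 unadjusted p under 0.05, and at 0.40 in Cas9M3 (SE 0.23, adjusted p = 0.586). Among all genes 0.767% were called higher and 0.376% lower in CTRL, and 0.0145% each way in Cas9M3. Without CTRL day 0 replicate 1, H2-DMa was called lower in CTRL (adjusted p = 0.0289).

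**Figure D5:**
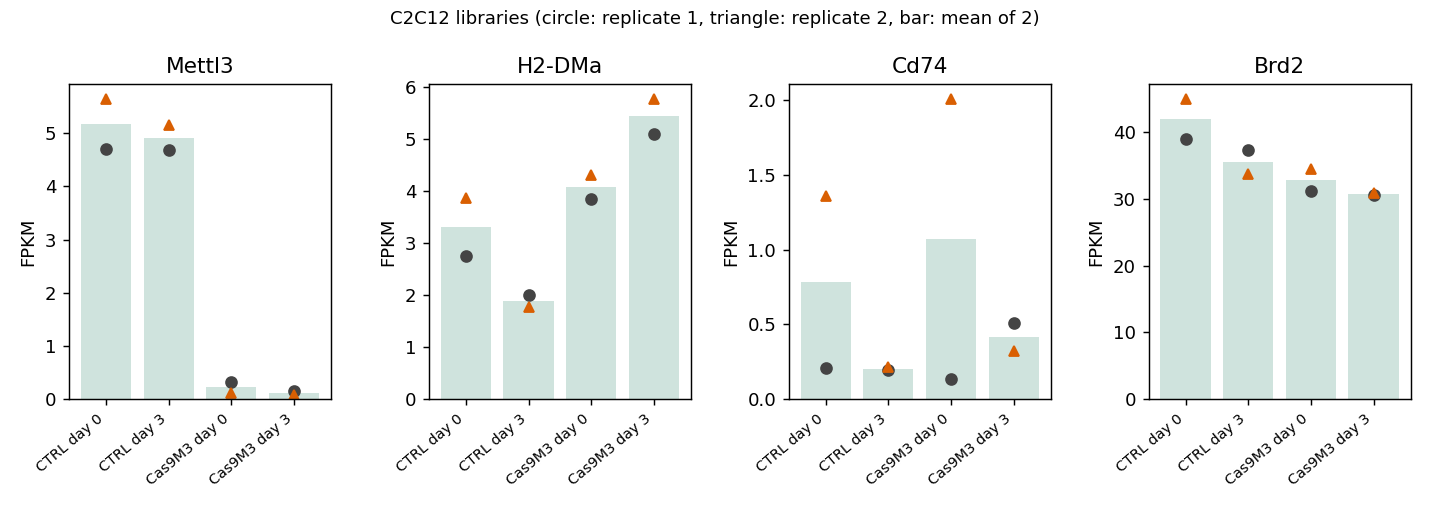
FPKM of Mettl3, H2-DMa, Cd74 and Brd2 in the 8 C2C12 libraries, with circles for replicate 1, triangles for replicate 2 and bars for the mean of both. H2-DMa is at 2.01 and 1.78 in CTRL and 5.10 and 5.78 in Cas9M3 on day 3, while Cd74 differs most between the 2 libraries of each day 0 group.

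Of the 31 other pathway genes, 19 were tested in C2C12, and none passed the limma test between Cas9M3 and CTRL on either day, with 1 at an unadjusted p under 0.05 on day 0 and 6 on day 3. The promoter-binding proteins Rfx5 and Nfya and the interferon gamma receptor chain Ifngr1 were present although Ciita was not detected in 7 of the 8 libraries. Rfx5 was at 2.34 to 5.06 FPKM and Nfya at 5.87 to 8.65 FPKM, and Ifngr1 at 14.1 to 19.8 FPKM. The proteases Ctsb, Ctsd and Ctsl were abundant, with Ctsb at 242 to 427 FPKM, while Ctss was at most 0.201 FPKM.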

How the data were processed

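Total RNA of regenerating muscle and of C2C12 cells was sequenced. By the methods, the authors aligned reads with HISAT2 to GRCm38, counted them with featureCounts and computed the deposited FPKM values with DESeq2. Versions and the strand setting of the counting are not given in the sources used here. The tables were scaled separately, so tests stayed within a table. The overexpression samples were not analysed here, and 1 pathway gene is not reported here by name. Sample groups came from the submitters' labels. Genes at 0.5 FPKM or more in at least 2 libraries were fitted as log2(FPKM + 0.1) with limma 3.58.1 (trend, all groups of a table in 1 fit, R 4.3.3), with Benjamini-Hochberg adjustment over all genes tested and a threshold of 0.05. Fold changes on this scale understate those of low genes, such as Ciita. An exact permutation test of 2 against 2 libraries cannot go below p = 0.333. Ratios and permutation tests used Python 3.11.15, pandas 2.3.3 and scipy 1.17.1. The finding of 1 read's worth, the limma comparison and the permutation test were tried on simulated data, and the other steps were not.

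Low FPKM values were whole multiples of 1 read's worth, within 0.02, for 96.4% to 97.3% of values in the regeneration libraries and 98.5% to 98.7% in C2C12, which gave the implied reads and the limit of 3 reads behind a 0. Read numbers of abundant genes are approximate, and such limits cover counting error only. The named genes were the 7 members, any gene of the pathway and marker lists, and the 10 genes with the highest Pearson r to the members' mean z-score. Members and lists were chosen with earlier results of these data known, and the study itself named class II assembly for these days, so directions are not independent evidence.

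Same-numbered libraries deviated together in C2C12 (correlation of deviations from the group means 0.278 to 0.680 in 6 of 6 pairs of groups), with no reason given in the labels, and not in the regeneration table (-0.02 to 0.21, above 0.1 in 2 of 10). Alternatives were another pseudocount (1 or 0.01), no filter or one of 1 FPKM, median-ratio scaling, quantile normalization, a replicate block, a term for Xist, fits of only the groups compared, an added log2 fold change limit of 2, and leaving out each library.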

Additional observations from a re-analysis of the deposited data

How the results depend on the processing

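The rise of all 7 genes from day 0 to day 3 and from day 1 to day 3, and their fall from day 3 to day 10, held under every alternative run, as did the absence of calls on days 1 and 10 against day 0. On day 5 against day 0, 7 genes passed, but 0 passed with the Xist term, and with 1 library left out the count was 0 to 7. On day 5 against day 3, 1 gene (Ciita) passed. The count was 2 with a pseudocount of 1, a filter of 1 FPKM, quantile normalization or a replicate block, and 5 with only those days fitted. It was 0 with a pseudocount of 0.01, no filter, the Xist term or the fold change limit, and 0 to 3 with 1 library left out. For Cas9M3 against CTRL on day 3, the count of 1 (H2-DMa) became 0 with the fold change limit and 0 to 1 with 1 library left out, and for CTRL day 3 against day 0 the count of 0 became 0 to 1. The count of 1 ratio became 0 with either pseudocount and 0 to 0 with 1 library left out. The causes were not tested. The replicate block changed no other count, and in C2C12, where numbers pair the libraries, H2-DMa on day 3 had an adjusted p of 0.0289 under it.

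Values whose sign turned were small or rested on 1 library. With 1 library left out, day 1 against day 0 ran from -0.31 to 0.39 for H2-Aa, -0.41 to 0.48 for H2-Ab1, -0.25 to 0.25 for H2-Eb1, -0.23 to 0.51 for Cd74 and -0.41 to 0.013 for Ciita, as log2 differences. Day 10 against day 0 ran from -0.00047 to 1.52 for H2-Eb1, -0.16 to 1.29 for H2-DMb1, -0.059 to 1.41 for Cd74 and -0.34 to 0.44 for Ciita, which was at -0.077 with quantile normalization. Cd74 in C2C12 turned for Cas9M3 against CTRL on day 0 with a pseudocount of 0.01 (-0.020), with quantile normalization (-0.040) and with 1 library left out (-1.52 to 1.66), and for Cas9M3 day 3 against day 0 with 1 library left out (-2.05 to 1.14). With 2 libraries a group, leaving out 1 leaves a lone sample that is assumed to vary like the others. In C2C12, 5 of the 7 genes had at most 6 reads in a library, too few to compare at this depth.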
